A study of Homo sapiens with 18 samples.

Results

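The GATA factors are 6 genes, GATA1 to GATA6, and all 6 had a row in the count table of 57133 genes. Their rows were taken by gene name. The RNA came from PGP1, an established line of human induced pluripotent stem cells (PSCs) grown in mTeSR1 on Matrigel, as the wild type (WT) and as 2 PCGF6-KO lines made from it, PCGF6KO1 (clone 1) and PCGF6KO2 (clone 2). Each KO line is 1 clone with a homozygous deletion in the first exon of PCGF6 made by CRISPR-Cas9. The deletions differ in size, so a difference between the clones compares line and PCGF6 allele together. Every group had 2 libraries, and nothing in the sources used here says whether these came from separate cultures. The p-values for single clones, and for the clones against each other, measure only the spread between libraries, which may be technical. The test of PCGF6-KO against WT takes the libraries of both clones as independent replicates of 1 group. Its spread therefore also holds the difference between the clones. ChIP-seq was not analysed here.

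GATA factors are transcription factors with zinc fingers that bind DNA at sites with the letters GATA, after which the family is named. GATA1, GATA2 and GATA3 are known for blood cells, and GATA2 and GATA3 also for trophoblast and surface ectoderm, while GATA4, GATA5 and GATA6 act in endoderm and in the heart. Undifferentiated PSCs are known for low GATA factor RNA, and several of these genes carry Polycomb marks in such cells. PCGF6 is a subunit of a variant Polycomb repressive complex, PRC1.6, that also holds the DNA-binding proteins MGA, MAX and E2F6.

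The sequence just upstream of a transcription start of 4 of the genes is shown because PRC1.6 is known for binding at CpG-rich promoters. GATA2, GATA3 and GATA6 rose in the KO cells, and GATA1 was near 0 throughout. The sequences of GATA4 and GATA5 were not analysed here, so the 4 are not the whole family. Each is the 250 bases before the start of the gene's reference transcript (MANE Select). It is written from 5′ to 3′ on the strand of the gene, with every CG dinucleotide in capitals. The whole GATA3 stretch and the last bases of the GATA1 stretch lie inside the annotated gene, which begins earlier. They are credited to RefSeq on GRCh38.p14 and lie at chr3:128493202-128493451 on the reverse strand (GATA2) and, on the forward strand, at chr10:8054438-8054687 (GATA3), chr18:22169339-22169588 (GATA6) and chrX:48786340-48786589 (GATA1).
GATA2: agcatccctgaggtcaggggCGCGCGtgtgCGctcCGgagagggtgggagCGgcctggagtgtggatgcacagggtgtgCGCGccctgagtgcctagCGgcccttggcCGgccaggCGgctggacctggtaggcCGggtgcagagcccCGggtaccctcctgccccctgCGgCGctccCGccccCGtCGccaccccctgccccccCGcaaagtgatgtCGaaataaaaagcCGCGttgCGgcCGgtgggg
GATA3: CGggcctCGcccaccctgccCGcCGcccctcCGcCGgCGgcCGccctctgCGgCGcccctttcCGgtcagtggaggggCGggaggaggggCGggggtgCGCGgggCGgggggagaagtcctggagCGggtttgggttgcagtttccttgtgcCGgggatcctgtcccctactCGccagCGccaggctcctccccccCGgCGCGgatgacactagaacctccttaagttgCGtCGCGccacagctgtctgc
GATA6: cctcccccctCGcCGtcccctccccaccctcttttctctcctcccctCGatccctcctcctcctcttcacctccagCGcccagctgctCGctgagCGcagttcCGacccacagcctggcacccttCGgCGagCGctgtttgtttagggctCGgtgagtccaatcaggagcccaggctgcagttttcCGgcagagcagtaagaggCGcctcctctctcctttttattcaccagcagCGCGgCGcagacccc
GATA1: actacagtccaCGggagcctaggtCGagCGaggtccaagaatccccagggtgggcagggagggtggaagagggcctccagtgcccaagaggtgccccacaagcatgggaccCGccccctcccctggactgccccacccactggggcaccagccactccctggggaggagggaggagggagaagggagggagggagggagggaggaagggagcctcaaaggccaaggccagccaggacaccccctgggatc

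The GATA3 stretch held 26 CG dinucleotides, that of GATA2 held 24 and that of GATA6 held 16, against 4 in GATA1. Over all 34943 promoter windows of RefSeq the median was 11 in the same 250 bases, with quartiles of 3 and 23. At least as many as in GATA3 were found in 19.6% of windows, as in GATA2 in 23.6%, as in GATA6 in 40.8% and as in GATA1 in 70.6%. The CG count was chosen after the expression values were known, and it is a description of 4 sequences. In the windows from 250 bases before to 50 after these starts, a search of both strands found 0 copies of each of 3 motifs, which do not overlap each other. They are CACGTG, the core of the site that MAX binds and present in 7.23% of all windows of this length; GCGGGAA, which E2F factors bind and which is present in 6.54%; and GATAA, which GATA factors bind and which is present in 22.8%. GATA3 has 6 annotated starts, and 3 of its other windows each held 1 of the motifs (CACGTG at chr10:8050986-8051285, GCGGGAA at chr10:8053391-8053690 and GATAA at chr10:8060207-8060506).

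The libraries summed to between 15877396 and 18918609 counts. For PCGF6 itself the WT libraries held 268 and 300 counts, those of clone 1 held 99 and 103, and those of clone 2 held 187 and 159, so it was lower in every KO library. It fell by 1.15 on the log2 scale (SE 0.27, adjusted p = 0.00914), and was not called when either WT library was left out (adjusted p = 0.0528 without replicate 1 and 0.0782 without replicate 2). The pluripotency factor POU5F1 differed by a log2 fold change of 0.01 (adjusted p = 0.907), NANOG by 0.40 (adjusted p = 0.0139, under the fold threshold), and SOX2 fell by 0.69 (adjusted p = 0.0178). In these tests the 4 KO libraries were set against the 2 of WT with edgeR's quasi-likelihood test. The p-values were adjusted (Benjamini-Hochberg) over 17672 genes. A gene was called where the adjusted p was under 0.05 and the log2 fold change beyond 0.6 in either direction. With each clone taken alone, SOX2 fell by 0.41 in clone 1, which was under the fold threshold, and by 1.04 in clone 2.

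To learn whether the GATA genes responded to the loss of PCGF6, their counts were compared across the 3 groups. GATA2, GATA3, GATA4, GATA5 and GATA6 were all higher in both PCGF6-KO clones than in WT, while GATA1 was at or near 0 throughout. GATA4 was at 61.4 ± 2.60 CPM (counts scaled to the library totals by TMM; SD, n = 2) in clone 2 against 0.154 ± 0.217 in WT. Clone 2 was higher than clone 1 for GATA2, GATA3, GATA4 and GATA6, and GATA5 did not pass that test. Of the 6 genes, 5 passed the filter on low counts, and these 5 were called higher in PCGF6-KO and 0 lower. Only GATA3 reached the filter in the WT libraries alone, and the other 4 passed through the KO libraries in which they are high, so the count of 5 is a description. Over the 17672 tested genes the calls were 14.9% higher and 8.7% lower. In bulk RNA, more cells with a gene on and more RNA per cell cannot be told apart, and this holds for every value below.

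**Figure D1:**
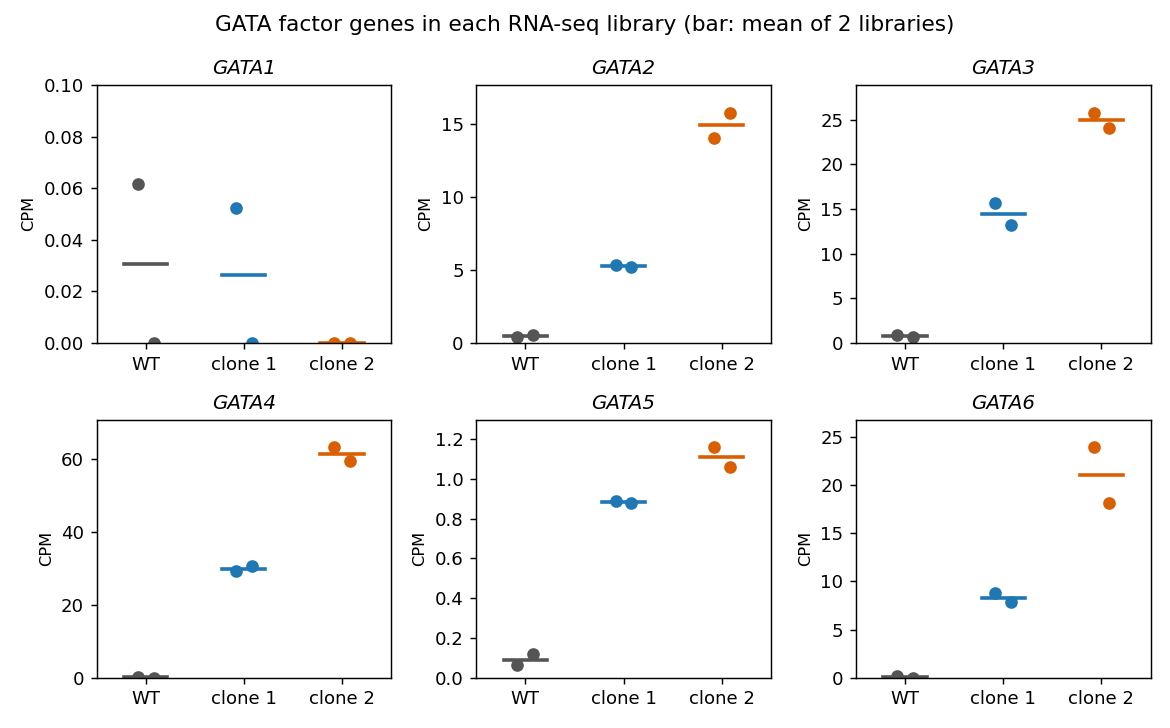
CPM (vertical axes, linear, each from 0) of the 6 GATA genes in WT, PCGF6-KO clone 1 and clone 2; points are single libraries and bars the means of 2 libraries. For GATA2 to GATA6 both libraries of each clone lie above both WT libraries, and those of clone 2 above those of clone 1; GATA1 stays below 0.1 CPM with 1 count at most in a library.

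GATA4 and GATA6 are partly redundant factors of endoderm and heart development. GATA4 (chromosome 8, 11676959 to 11760002, forward strand, GRCh38) had 5 and 0 counts in the WT libraries, 561 and 555 in clone 1, and 1146 and 955 in clone 2. The WT libraries were at 5 counts or fewer, and all 4 KO libraries were far above them. The ratio of normalised counts was 297 (95% counting interval 127 to 915), and the fitted log2 fold change was 8.16 (SE 0.74, adjusted p = 4.45e-05). Against WT, clone 1 gave a log2 fold change of 7.56 (SE 0.26, adjusted p = 2.11e-18) and clone 2 one of 8.59 (SE 0.24, adjusted p = 1.01e-20). Without WT replicate 1, which holds all 5 WT counts, the fitted value was 12.65, since a fold against so few counts depends on the prior count of the fit.

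GATA6 (chromosome 18, 22169589 to 22202528, forward strand) had counts of 2 and 0 (WT), 168 and 142 (clone 1) and 434 and 292 (clone 2). The groups did not overlap, and the clone 2 libraries differed more from each other (21.1 ± 4.06 CPM) than those of clone 1 (8.30 ± 0.690 CPM). Its ratio to WT was 239, with a wide counting interval of 66.0 to 1976 that comes from the 2 WT counts. The fitted log2 fold change was 7.76 (SE 0.96, adjusted p = 0.000283), with 6.94 in clone 1 and 8.28 in clone 2. Of its annotated exon bases, 415 are shared with antisense RNAs, 94 of them with GATA6-AS1. The strand setting of the counting is not given in the sources used here, so reads of these partners cannot be told apart. Leaving out WT replicate 1 moved the fitted value to 11.01.

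GATA5, the third of the genes known for endoderm and heart, had the smallest log2 fold change of the 5 that were tested. GATA5 (chromosome 20, 62463497 to 62475995, reverse strand) had counts of 1 and 2 (WT), 17 and 16 (clone 1) and 21 and 17 (clone 2). All KO libraries were above WT, at a level that stayed near 1 CPM. The ratio to WT was 10.9 (95% counting interval 3.59 to 54.2), and the log2 fold change was 3.35 (SE 0.51, adjusted p = 0.00100). In each clone it was called, at 3.18 (SE 0.67) in clone 1 and 3.51 (SE 0.65) in clone 2.

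GATA3 and GATA2 were the members with more than 5 counts in a WT library, and both rose. GATA3, a factor of T cells, trophoblast and surface ectoderm (chromosome 10, 8045378 to 8075198, forward strand), had counts of 15 and 11 (WT), 300 and 240 (clone 1) and 468 and 386 (clone 2). Both clones were above WT with no overlap. The ratio was 24.7 (95% counting interval 16.8 to 38.0) and the log2 fold change 4.63 (SE 0.40, adjusted p = 3.43e-05). Each clone was called against WT, at 4.18 (SE 0.21, adjusted p = 4.93e-15) in clone 1 and 4.97 (SE 0.20, adjusted p = 2.03e-17) in clone 2.

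GATA2, a factor of blood stem cells and endothelium (chromosome 3, 128479427 to 128493201, reverse strand), had counts of 7 and 9 (WT), 102 and 94 (clone 1) and 254 and 253 (clone 2). The 3 groups were well apart, in the order WT, clone 1, clone 2. The ratio to WT was 20.3 (95% counting interval 12.4 to 35.7), and the log2 fold change was 4.35 (SE 0.69, adjusted p = 0.00122). Its SE against WT was larger than that of GATA3 in the fit of the 4 KO libraries as 1 group, and within single clones it was 0.28 (clone 1) and 0.24 (clone 2), where the log2 fold changes were 3.42 and 4.92. It shares 78 exon bases with GATA2-AS1.

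GATA1, the master regulator of red blood cells and platelets (chromosome X, 48786540 to 48794311, forward strand), had counts of 1 and 0 (WT), 1 and 0 (clone 1) and 0 in both clone 2 libraries. This was too few for the test. A count of 0 over both clone 2 libraries allows up to 0.0878 CPM (3 counts), and no fold is given because every group was under that floor. Intervals and floors cover counting error only.

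The same direction was found with each clone taken alone. The 5 tested genes were called higher in clone 1 and in clone 2. Over all genes, 16% were called higher in clone 1 and 16.9% in clone 2. In CPM, the 5 tested genes had all 4 KO libraries above both WT libraries, a pattern seen in 29.5% of all tested genes. For the 4 genes that passed the filter on low counts only through the KO libraries, this pattern and the calls are a description. Both clones were compared with the same 2 WT libraries. Summed over the 6 genes, they held 31 and 22 counts (WT), 1149 and 1047 (clone 1) and 2323 and 1903 (clone 2).

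The clones also differed from each other. This contrast sets the clones against each other in the fit of all 3 groups, in which the WT libraries enter the filter, the scaling and the estimate of the spread. GATA2 had the largest difference, with 2.82 times the normalised count in clone 2 (95% counting interval 2.39 to 3.35, log2 fold change 1.5, SE 0.15, adjusted p = 3.53e-08). GATA6 was 2.56 times higher (2.23 to 2.93, log2 fold change 1.35, SE 0.15, adjusted p = 1.78e-07) and GATA4 2.05 times (1.91 to 2.21, log2 fold change 1.04, SE 0.10, adjusted p = 2.70e-08). GATA3 had the smallest called difference, 1.73 times (1.55 to 1.93, log2 fold change 0.79, SE 0.12, adjusted p = 1.51e-05).

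GATA5 was not called between the clones. Its log2 difference was 0.33 (SE 0.40, adjusted p = 0.637) with a 95% interval of −0.49 to 1.15. This interval still holds the values of GATA3 and GATA4. A difference of that size was therefore not excluded at 33 and 38 counts per clone. In a fit of the 4 KO libraries alone the log2 differences were 1.49 (GATA2), 0.78 (GATA3), 1.02 (GATA4), 0.31 (GATA5) and 1.33 (GATA6), with the same calls. In this comparison 4 of 5 tested GATA genes were called higher in clone 2, against 3.73% of all genes. Genes of the tissue lists described below were often called higher in clone 2 too, so this was not particular to the GATA genes. It held for 9 of 17 tested genes of heart and lateral mesoderm and 6 of 11 of trophoblast, amnion and surface ectoderm. For endoderm it was 4 of 19, and for blood and endothelium 4 of 13. The clone 2 libraries were both above the clone 1 libraries for the 5 tested GATA genes, GATA5 included, and for 28.9% of all tested genes. PCGF6 RNA was also higher in clone 2, by a log2 fold change of 0.90 (SE 0.15, adjusted p = 5.44e-05), and its part in the difference was not tested.

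**Figure D2:**
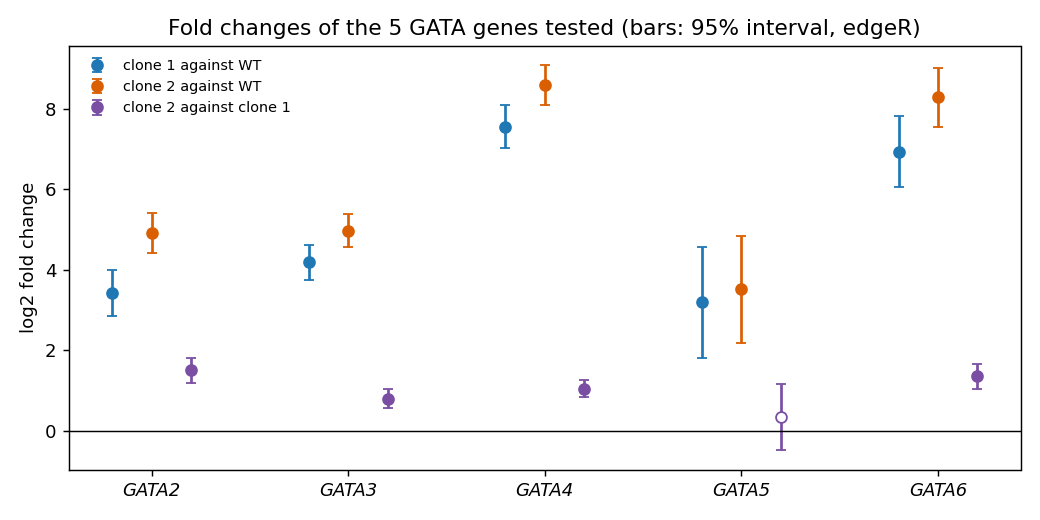
Log2 fold change (vertical axis) of the 5 GATA genes that passed the filter on low counts, for clone 1 against WT, clone 2 against WT and clone 2 against clone 1; bars are 95% intervals from edgeR's fit and the open point was not called. Every value against WT lies above 3, and the interval of GATA5 between the clones spans 0.

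To compare levels between genes, counts were divided by the gene length deposited beside them, giving CPM per kilobase. In both clones the order of this level was GATA4, GATA3, GATA6, GATA2, GATA5 and GATA1, and no 2 neighbours in that order overlapped in their libraries. In clone 1 the per-length level was 6.74 ± 0.189 for GATA4 and 4.20 ± 0.512 for GATA3 (SD, n = 2). Lower down that order, GATA6 had per-length levels of 2.23 and 1.98 in its libraries, GATA2 a mean of 1.18 ± 0.0260 and GATA5 of 0.341 ± 0.00245. In clone 2 the per-length levels were 13.8 ± 0.586 for GATA4, 7.26 ± 0.361 for GATA3, 5.34 ± 1.03 for GATA6, 3.34 ± 0.279 for GATA2 and 0.427 ± 0.0269 for GATA5.

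WT cells had another order. GATA3 was first at a per-length level of 0.230 ± 0.0539 and GATA2 second at 0.109 ± 0.0174, with no overlap between them or with the rest. GATA5 (0.0349 ± 0.0159), GATA4 (0.0346 ± 0.0489), GATA1 (0.0205 ± 0.0290) and GATA6 (0.0156 ± 0.0220) followed and could not be ordered, since each overlapped the next. GATA3 made up 52.0% ± 1.98 of the summed per-length level of the family in WT, 28.8% ± 2.42 in clone 1 and 24.1% ± 0.178 in clone 2. GATA4 made up 6.53% ± 9.23 in WT, from 5 counts in 1 library, 46.3% ± 3.04 in clone 1 and 45.8% ± 0.672 in clone 2.

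**Figure D3:**
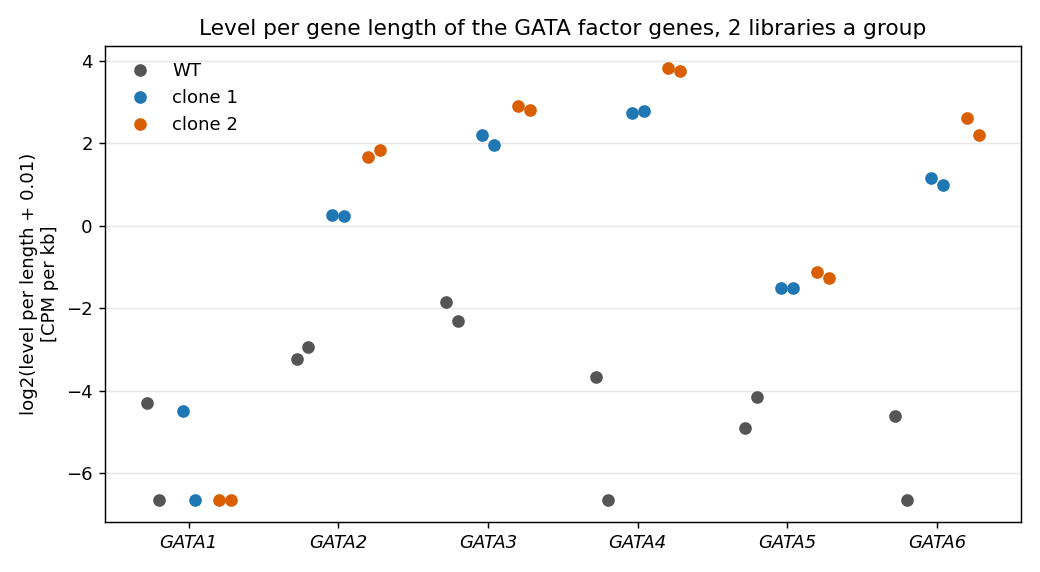
Level per gene length (vertical axis, log2 of CPM per kilobase plus 0.01) of the 6 GATA genes; each point is 1 library of WT, clone 1 or clone 2, and the lowest points are libraries with 0 counts. GATA4 is highest in both clones and GATA3 in WT.

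Genes beside the members, and genes of the same kind, were looked at next. GATA6-AS1, an antisense RNA that starts near GATA6, had 0 counts in both WT libraries, 15 in each of clone 1 and 31 and 14 in those of clone 2. It was called higher (adjusted p = 0.00189), at least 11.5-fold against a floor of 3 counts over the WT libraries. GATA3-AS1 (0 and 0, 2 and 4, 8 and 2 counts in WT, clone 1 and clone 2) and GATA2-AS1 (0 and 0, 2 and 1, 6 and 3) had too few counts for the test. HDAC6, a deacetylase gene next to GATA1, had between 684 and 890 counts and was not called (log2 fold change −0.29, under the fold threshold, adjusted p = 0.0282). Of 9 other genes with a GATA-type zinc finger, such as the NuRD subunits, 8 were tested, and only TRPS1, a repressor that binds GATA sites, was called, with counts of 130 and 160 (WT), 284 and 347 (clone 1) and 390 and 366 (clone 2; log2 fold change 1.15, adjusted p = 0.00138). The median over these 8 was −0.08.

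For each member with at least 10 counts in some library, the genes whose pattern over the 6 libraries was most like it were found by the root mean square (RMS) difference of centred log2(CPM + 0.5). FOXC1, BMP2 and TLR4 were nearest to GATA2, with RMS differences of 0.125, 0.126 and 0.159. SNAI2, PRDM1 and GDNF were nearest to GATA3 (0.116, 0.116 and 0.122). For GATA4 they were AC131094.1, APLNR and CDX2 (0.199, 0.242 and 0.319), and for GATA6 AC022075.2, NR2F2 and TBX4 (0.148, 0.189 and 0.189). Only 2 genes of 17671 lay within 0.3 of GATA4, against 12 for GATA6, 41 for GATA2, 65 for GATA3 and 1105 for GATA5. LINC00623, SLC3A2 and PLSCR1 were the nearest to GATA5, whose small counts are flattened by the pseudocount. The pseudocount also flattens the WT end of GATA2, GATA3, GATA4 and GATA6, which were at 0.921 CPM or less in each WT library. GDNF, for example, had 0 counts in both WT libraries, where GATA3 had 15 and 11. A small RMS difference therefore does not mean an equal fold against WT. These likenesses over 6 libraries of 3 groups are a description.

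The lists of genes known to work with GATA factors gave a mixed picture. Of 15 cofactors and partners, 14 were tested, 5 were called higher and 0 lower. Among the 8 that reached the filter in WT alone, 3 were called higher. ZFPM2, the FOG protein that binds GATA4 and GATA6, had counts of 11 and 13 (WT), 42 and 57 (clone 1) and 76 and 57 (clone 2) (log2 fold change 2.15, adjusted p = 0.00130). HAND2, a heart factor, had 0 counts in WT and 98 to 249 in the KO libraries (at least 108-fold), and NKX2-5, a partner of GATA4, had 0 in WT and 5 to 11 (at least 4.92-fold). MEF2C rose by 0.85 (adjusted p = 0.0242), and SRF is the fifth of the 5. ZFPM1, the FOG protein of blood, gave a log2 value of 0.09 (adjusted p = 0.896). Without WT replicate 2 the number of these genes called higher was 3.

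Genes of tissues in which GATA factors act moved to different extents. The lists were chosen with earlier results of these data known, and some genes stand in more than 1 list. Of 18 genes of the heart and lateral mesoderm, 17 were tested and 13 were called higher and 0 lower. TBX5, MYH6, NPPA and SMARCD3 were not called (adjusted p = 0.0787, 0.0878, 0.120 and 0.363). Since 11 of the 17 passed the filter only through the KO libraries, the count is a description, and of the 6 that reached it in WT alone 5 were called higher. HAND1, a factor of lateral mesoderm, had 0 counts in WT and 672 to 2012 in the KO libraries, at least 773-fold higher. NPPB, a natriuretic peptide of the heart, had 0 and 1 counts in WT and 272 to 586 in the KO libraries (ratio 750, 95% counting interval 134 to 29625), and FOXF1, a mesoderm factor, rose at least 25.8-fold from 0 counts in WT. The summed level of the list was 53.1 to 54.8 CPM in WT, 1200 to 1240 in clone 1 and 1767 to 1887 in clone 2. Most of this sum and of its rise was the gene ACTC1 alone. It was at 28.6 to 29.0 CPM in WT, 992 to 1036 in clone 1 and 1382 to 1472 in clone 2.

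Of 21 endoderm genes, 19 were tested, with 13 called higher and 1 lower. Of the 11 that reached the filter in WT alone, 7 were called higher and 1 lower. EOMES, a factor of primitive streak and endoderm, had counts of 3 and 5 (WT), 2630 and 2528 (clone 1) and 1615 and 1647 (clone 2), and the difference between the clones (log2 −0.53 for clone 2 minus clone 1, adjusted p = 5.00e-06) was under the fold threshold. SOX17, a factor of definitive endoderm, was at 0 in WT and at 33 to 47 in the KO libraries (at least 26.3-fold), MIXL1 rose by 6.48 on the log2 scale, and HNF4A, a liver factor, by at least 5.54-fold from 0. FOXA3 fell by 0.76. The liver protein TTR stayed at 2 counts or fewer in each library. Summed over the list, the level was 449 to 459 CPM in WT, 1531 to 1537 in clone 1 and 1851 to 1867 in clone 2.

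Trophoblast, amnion and surface ectoderm, where GATA2 and GATA3 act, gave 9 genes called higher and 0 lower of 11 tested, out of 20 in the list. Of these 11, 8 passed the filter only through the KO libraries in which they are high, so the count is largely fixed by the filter. Of the 3 that reached it in WT alone, TFAP2C, a factor of trophoblast and germ cells, rose by 3.45, while the keratin KRT7 (log2 fold change −0.50, adjusted p = 0.330) and GABRP (0.00, adjusted p = 0.987) were not called, and KRT7 was called lower in clone 2 alone (−1.07, adjusted p = 0.00261). CDX2, a caudal factor, had 1 count in each WT library, 660 and 762 in clone 1, and 1169 and 1481 in clone 2. TBX3 and MSX2 rose by 8.31 and 6.27 on the log2 scale, and TFAP2B at least 9.38-fold. Of the other markers too low to test, ELF5, HAVCR1, CGB3, CGB5 and ITGB6 had 2 counts or fewer in every library, VTCN1 had 1 to 7, and CGA had 0 and 2 in WT and 5 to 9 in the KO libraries. The summed level was 19.7 to 22.2 CPM in WT, 245 to 255 in clone 1 and 376 to 388 in clone 2. The part of cells of these kinds in the values of the GATA genes was not tested.

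Blood and endothelium, the setting of GATA1 and GATA2, had genes called in both directions. Of 22 genes 13 were tested, with 3 called higher, 4 lower and a median of −0.08, and 3 of the 13 passed the filter only through the KO libraries. RUNX1, a factor of blood stem cells, had counts of 18 and 16 (WT), 132 and 139 (clone 1) and 244 and 240 (clone 2) (log2 fold change 3.37). FLI1 rose by 3.21 and KDR, a receptor of endothelium and early mesoderm, by 1.68, while ERG fell by 2.31, CDH5 (VE-cadherin) by 1.43 and EPOR, the erythropoietin receptor, by 0.95. The globin genes HBE1, HBG1, HBG2 and HBZ were at 0 in all 6 libraries. The summed level was 232 to 234 CPM in WT, 529 to 555 in clone 1 and 525 to 563 in clone 2, and KDR alone set this rise. Without KDR the sum was lower in the KO libraries, at 83.1 to 84.6 CPM in WT, 57.7 to 60.3 in clone 1 and 71.1 to 74.2 in clone 2.

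The pluripotency list was split. All 12 genes were tested, 0 were called higher and 5 lower, while the other 7, POU5F1 and NANOG among them, were not called, with a median of −0.37 against 0.00 over all tested genes. ZFP42, known as REX1, had 304 and 329 counts in WT and 1 or 2 in every KO library, a fall by 7.51 on the log2 scale (adjusted p = 8.20e-08), and TERF1 fell by 1.81 and PRDM14 by 1.51. The summed level was 10555 to 10979 CPM in WT, 8769 to 8892 in clone 1 and 7721 to 7985 in clone 2, a fall that is mostly that of DNMT3B, a DNA methyltransferase, and TERF1. Without these 2 genes the WT libraries summed to 6806 and 7043 CPM, those of clone 1 to 6924 and 7075 and those of clone 2 to 6366 and 6595, so WT and clone 1 overlapped. Its part in the levels of the GATA genes was not tested.

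**Figure D4:**
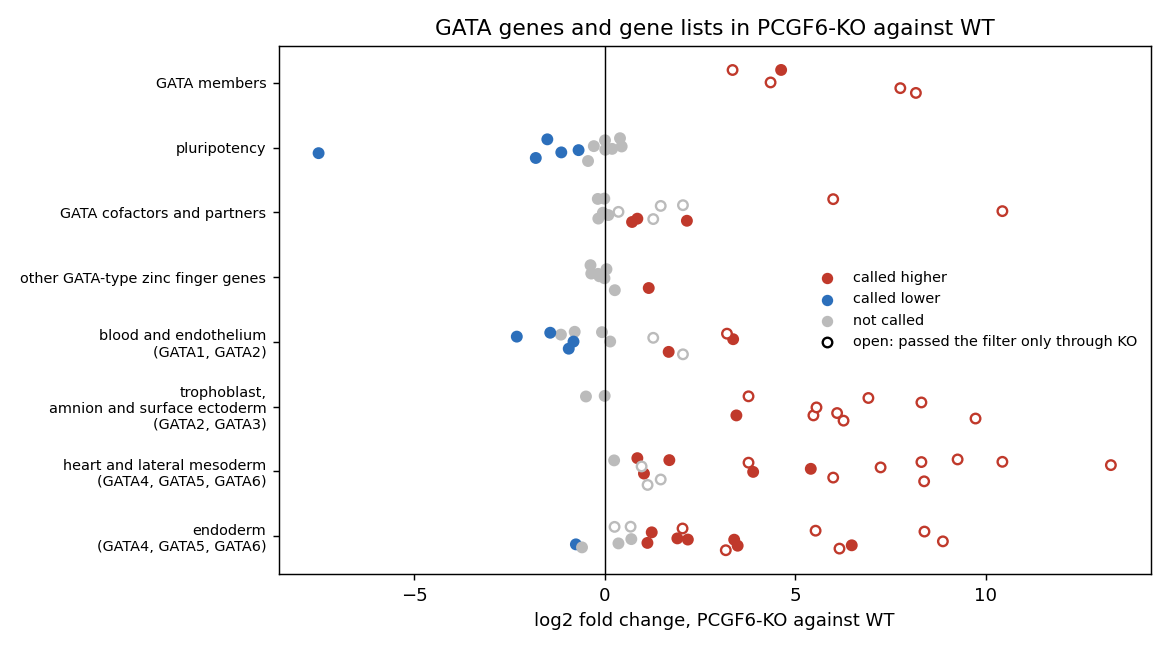
Change on the log2 scale, PCGF6-KO against WT (horizontal axis), for the 5 tested GATA genes and the tested genes of 7 lists; points are genes, coloured by the call of edgeR's test, and open points passed the filter on low counts only through the KO libraries. Of the GATA genes only GATA3 is filled, and 8 of 11 points of the trophoblast, amnion and surface ectoderm list are open; values of genes at 0 in WT depend on the prior count of the fit.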

How the data were processed

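RNA-seq libraries of WT PGP1 cells and of PCGF6-KO clones 1 and 2 (2 each) were used. Per the submitters' processing notes and the methods, reads were trimmed with Trim Galore (0.6.2), aligned to GRCh38 with HISAT2 (2.1.0) and counted per gene with featureCounts. The authors deposited these raw counts, with a gene length. The annotation release, strand setting and handling of multi-mapped reads are not given in the sources used here. The members and lists were chosen with earlier results of these data known. The genes named were all members, PCGF6, POU5F1, NANOG, SOX2, the neighbours, the 3 nearest genes to each member and, per list, up to 4 genes called higher and 3 lower with the largest change; others, such as SRF, DNMT3B, TFAP2C, KRT7 and GABRP, were named after their values were seen.

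filterByExpr on the genotypes kept 17672 of 57133 genes. edgeR (4.0.16, R 4.3.3) scaled libraries by TMM and tested with glmQLFit and glmQLFTest, with KO and WT as 2 groups, or 3 groups for single clones. Counting intervals are exact (Clopper-Pearson) at 95%. Replicate libraries differed by 2.4 (WT), 4.5 (clone 1) and 3.2 (clone 2) times the variance of counting error, which does not show whether they are technical repeats. On simulated counts for 17672 genes, the comparison of PCGF6-KO with WT recovered 100 of 100 genes changed 4-fold, 92 of 100 changed 2-fold and 3 false calls; clone 1 gave 100, 87 and 10, and clone 2 gave 100, 83 and 5. Whether this recovery and these false calls hold for genes with few WT counts, or for genes that differ between the clones, was not tested. Positions and exons came from GENCODE release 44. As alternatives, each library was left out, the scaling was RLE or upper-quartile, the test DESeq2 (1.42.0), the replicate number a block, TPM the level, and the filter, the fold threshold or the group not compared was dropped, or the clones were averaged.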

Additional observations from a re-analysis of the deposited data

Results flagged for a closer look

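The clones differed by a test of the difference itself for GATA2 (clone 2 minus clone 1, log2 1.5), GATA3 (0.787), GATA4 (1.04) and GATA6 (1.35), and for PCGF6 (0.90). In all 5 cases clone 2 was the higher. GATA5 was not among them.

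GATA1 had 1 count in 1 of the 4 PCGF6-KO libraries and 0 in the others, so this library stood apart by the whole range of the group (ratio of gap to range 1). A single count among libraries at 0 always gives this ratio, so the usual rate of about 1 in 20 groups does not apply, and nothing is read from it.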

How the results depend on the processing

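The number of GATA genes called in each direction was the same in all 104 recomputed values. Against WT it was 5 higher and 0 lower, and between the clones 4 higher and 0 lower, with every tool, scaling, filter, threshold and left-out library tried. As 4 of the 5 genes called against WT passed the filter on low counts only through the KO libraries, the counts against WT are a description. None of the fold changes of the members changed sign. Without WT replicate 1, in which GATA4 and GATA6 have all their WT counts, the fitted log2 fold changes were 12.65 and 11.01, and without WT replicate 2 they were 7.18 and 6.82. When single libraries were left out, GATA2 ranged from 4.05 to 4.57, GATA3 from 4.41 to 4.88 and GATA5 from 2.98 to 3.87. TPM in place of CPM per kilobase moved 17 of 18 levels, by its own scale, and kept the order of the members in both clones.

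With the adjusted p alone, 2927 genes were lower in PCGF6-KO, 4266 higher and 3736 lower in clone 1, 4629 and 4275 in clone 2, and 1883 and 1559 between the clones. DESeq2 called 437 and 463 genes between the clones. Smaller counts of list genes also moved. The adjusted p alone gave 2 pluripotency genes higher, 2 other zinc finger genes higher and 2 lower, 1 neighbour lower and 2 endoderm genes lower, and DESeq2 and leaving out either clone 1 library also gave 2 endoderm genes lower. The causes were not tested.

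Nothing in the labels says what a replicate number shares. Deviations of libraries with the same number correlated weakly over 15104 genes, at a Pearson r of 0.042 (WT and clone 1), 0.053 (WT and clone 2) and 0.162 (the clones) and a Spearman rho of 0.116, 0.11 and 0.232, so a pairing was neither shown nor excluded. With the replicate number as a block, 2474 genes were higher and 1402 lower in PCGF6-KO, and the 5 GATA genes were called as before. Depth limits GATA1 and GATA5, and the WT level of GATA4 and GATA6.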
